A study of Bos indicus and Bos taurus with 17 samples.

Results

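The genes of MHC class I antigen presentation were followed in epithelial cells from the milk of Kashmiri and of Jersey cows. There were 10 of them, out of 21631 distinct names in the expression table: B2M, JSP.1, TAP1, TAP2, TAPBP, PSMB8, PSMB9, ERAP1, NLRC5 and PDIA3. They were chosen by name from what is known of the pathway, with no cut on their values, though earlier results of these data were known. All 10 were found. JSP.1, TAP2 and TAPBP sat in entries that carried joined names, TAPBP together with RGL2, so reads of the joined genes could not be told apart in these values.

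Class I molecules show T cells a sample of the peptides made inside a cell. The proteasome, with subunits exchanged in immune conditions for PSMB8 and PSMB9, cuts proteins into peptides, the pair TAP1 and TAP2 carries them into the endoplasmic reticulum, ERAP1 trims them there, and tapasin (TAPBP) with PDIA3 helps to place them on a heavy chain bound to beta-2 microglobulin (B2M). NLRC5 switches on many of these genes, and interferon gamma raises them; white blood cells, which are common in milk, express class I molecules at high levels, and B2M is also a protein of milk itself.

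RNA was sequenced from cells caught from milk with beads carrying an antibody to the epithelial keratin KRT18. Kashmiri and Jersey cows were sampled at D15, D90 and D250 in milk, untreated, with 17 labelled samples in all: 3 for each breed and day, but 2 for Jersey at D90. The labels gave March as the month of D15, July of D90 and December of D250, so day in milk and season cannot be told apart. They gave lactation numbers of 2 and 3, which were mixed differently in the groups, and no age or identity of a cow. By the study's methods the same cows of each breed, all in 1 lactation number, were milked on every day. The labels do not tie samples to cows, and list 1 library fewer than was sequenced, so the Jersey D90 value may rest on 2 or 3 samples. For each of the 6 groups the authors' table held a single pooled FPKM (a fragment count divided by transcript length and by sequencing depth), and there was no value per cow. No spread between cows, interval or test could therefore be had for any value below, 1 cow could carry a group value, and neighbours in any order of levels could not be separated by an error. Read totals of the libraries were stated by the study, but the fragments behind a gene's FPKM were not given.

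The labelled cell type was checked against marker genes. KRT18 stood at 51.3, 9.13 and 11.5 FPKM in Kashmiri and at 33.7, 1.59 and 4.51 FPKM in Jersey cattle at D15, D90 and D250. KRT19 was higher, between 295.2 and 3195 FPKM in Kashmiri and between 38.2 and 1687 FPKM in Jersey cattle. Of the milk proteins, CSN1S1, CSN2 and PAEP had 0 FPKM in every group but Jersey D90, whereas LALBA reached 13031 FPKM in Kashmiri D250 and CSN3 8174 FPKM in Kashmiri D15. The 14 epithelial genes found summed to between 13898 and 17108 FPKM in the Kashmiri and between 4910 and 7446 FPKM in the Jersey groups. These sums do not track epithelial content, since milk protein genes listed at 0 in some groups made up much of them. LALBA alone stood at 12933 FPKM in Kashmiri D90, whereas KRT19, ELF5 and XDH were lowest at D90 in both breeds. An exact 0 in this table can be a failed estimate, as 19 of the 154 names above 2000 FPKM in some group (12.3%) were listed at 0 in another. The study itself reported CSN1S1, CSN2, CSN3 and LALBA at high levels in every group, so their 0 values here cannot be read as absence. By its qPCR at D90, KRT18 and CSN2 were higher in the caught cells than in all milk cells. LSP1, HBA and CD18, its markers of other cells, were lower. In the values here, LSP1 stood at 253.8 FPKM in Kashmiri D90 and 170.0 FPKM in Jersey D90, above KRT18 in both. KRT19 was above LSP1 in Kashmiri D90, at 295.2 FPKM, and below it in Jersey D90, at 38.2 FPKM. Markers of white blood cells were present in all groups. The sum over 9 neutrophil markers was between 207.9 and 674.5 FPKM in the Kashmiri and between 5220 and 14735 FPKM in the Jersey groups, and the sum over 12 T and NK cell markers was highest in Kashmiri D90, at 1759 FPKM, against 110.8 to 468.4 FPKM elsewhere. The 10 macrophage markers summed to between 129.3 and 2179 FPKM, the 7 B cell markers to between 8.90 and 80.0 FPKM, and the 3 red blood cell genes found to under 1 FPKM in each group. In such mixed RNA, fewer cells of a type and less RNA per cell cannot be told apart.

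B2M, the light chain shared by all class I molecules, was among the most abundant of all transcripts. It stood at 3090, 7468 and 2723 FPKM in Kashmiri and at 3716, 10721 and 14358 FPKM in Jersey cattle at D15, D90 and D250. The breeds were close at D15, both were higher at D90, and at D250 they lay far apart. Among all names, B2M had rank 81, 14 and 23 in Kashmiri and rank 34, 1 and 2 in Jersey cattle on the same days. These ranks hold within this table alone, where abundant milk protein genes were listed at 0 in some groups. In Jersey D90 they were above 0, but CSN2 stood at 1068 FPKM and CSN1S1 at 949.2 FPKM. The study reported both far above B2M in that group.

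JSP.1, a class I heavy chain, was the other abundant member. Its joined entry, which also held 3 Ensembl identifiers, stood at 4336 FPKM in Kashmiri D15 and 2351 FPKM in Kashmiri D250, and at 3280, 2677 and 2888 FPKM in Jersey cattle on the 3 days. For Kashmiri D90 it was listed at 0, as were all 5 entries that carried the name, so no ratio was taken against that group. BOLA-A, a classical heavy chain whose entry joined 4 further Ensembl identifiers, stood at 986.4 FPKM in the same group. Heavy chain genes are nearly identical in stretches, so the split of reads between JSP.1 and BOLA-A is uncertain. The series names Bos indicus and Bos taurus, and all reads were aligned to the same bovine reference. Whether heavy chain reads of both breeds mapped to it equally well was not tested.

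The transporter and loading genes were far lower. TAP1, which forms the peptide transporter with TAP2, had 89.6, 119.2 and 39.7 FPKM in Kashmiri and 133.6, 143.1 and 165.0 FPKM in Jersey cattle at D15, D90 and D250. For TAP2 the values were 48.6, 43.9 and 22.6 FPKM in Kashmiri and 92.4, 78.0 and 132.3 FPKM in Jersey cattle. Both transporter genes were higher in Jersey than in Kashmiri cattle on every day and, as deposited, had their lowest value in Kashmiri D250 and their highest in Jersey D250.

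TAPBP, the loading chaperone that bridges transporter and heavy chain, had 95.3, 150.5 and 75.7 FPKM in Kashmiri and 135.1, 211.7 and 314.7 FPKM in Jersey cattle. PDIA3, a disulfide isomerase of the loading complex with a wider part in glycoprotein folding, had 93.8, 222.3 and 128.4 FPKM in Kashmiri and 152.6, 251.5 and 202.9 FPKM in Jersey cattle. TAPBP followed the shape of B2M, while PDIA3 was highest at D90 in both breeds.

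PSMB8 replaces PSMB5 in the immunoproteasome, and was the most abundant of the 8 other members in every group but Jersey D250, where TAPBP was above it. It had 606.5, 391.0 and 174.0 FPKM in Kashmiri and 604.8, 258.7 and 304.6 FPKM in Jersey cattle. PSMB9, which replaces PSMB6, had 202.6, 197.0 and 73.5 FPKM in Kashmiri and 239.3, 144.6 and 151.4 FPKM in Jersey cattle. Both subunits were higher at D15 than at D250 in both breeds as deposited. B2M was so in Kashmiri cattle only, at 3090 against 2723 FPKM.

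The peptidase ERAP1 and the transactivator NLRC5 were the lowest members. ERAP1 had 12.5, 12.5 and 9.55 FPKM in Kashmiri and 7.61, 11.4 and 10.5 FPKM in Jersey cattle, the narrowest range of the 10 in fold. NLRC5 had 12.6, 18.9 and 10.3 FPKM in Kashmiri and 23.4, 22.6 and 52.7 FPKM in Jersey cattle. As deposited, Jersey D250 held the highest value of 5 members, B2M, TAP1, TAP2, TAPBP and NLRC5, and Kashmiri D250 the lowest value above 0 of 8, all but ERAP1 and PDIA3. Rescaled by the upper quartile or to a common sum (described with the comparisons), these counts were 4 and 6, or 4 and 4, TAP1 being highest in Jersey D90 under both and B2M lowest in Kashmiri D15. The shares of all genes with such extremes were not computed, so these counts have no background and are not shown to be particular to the members.

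**Figure D1:**
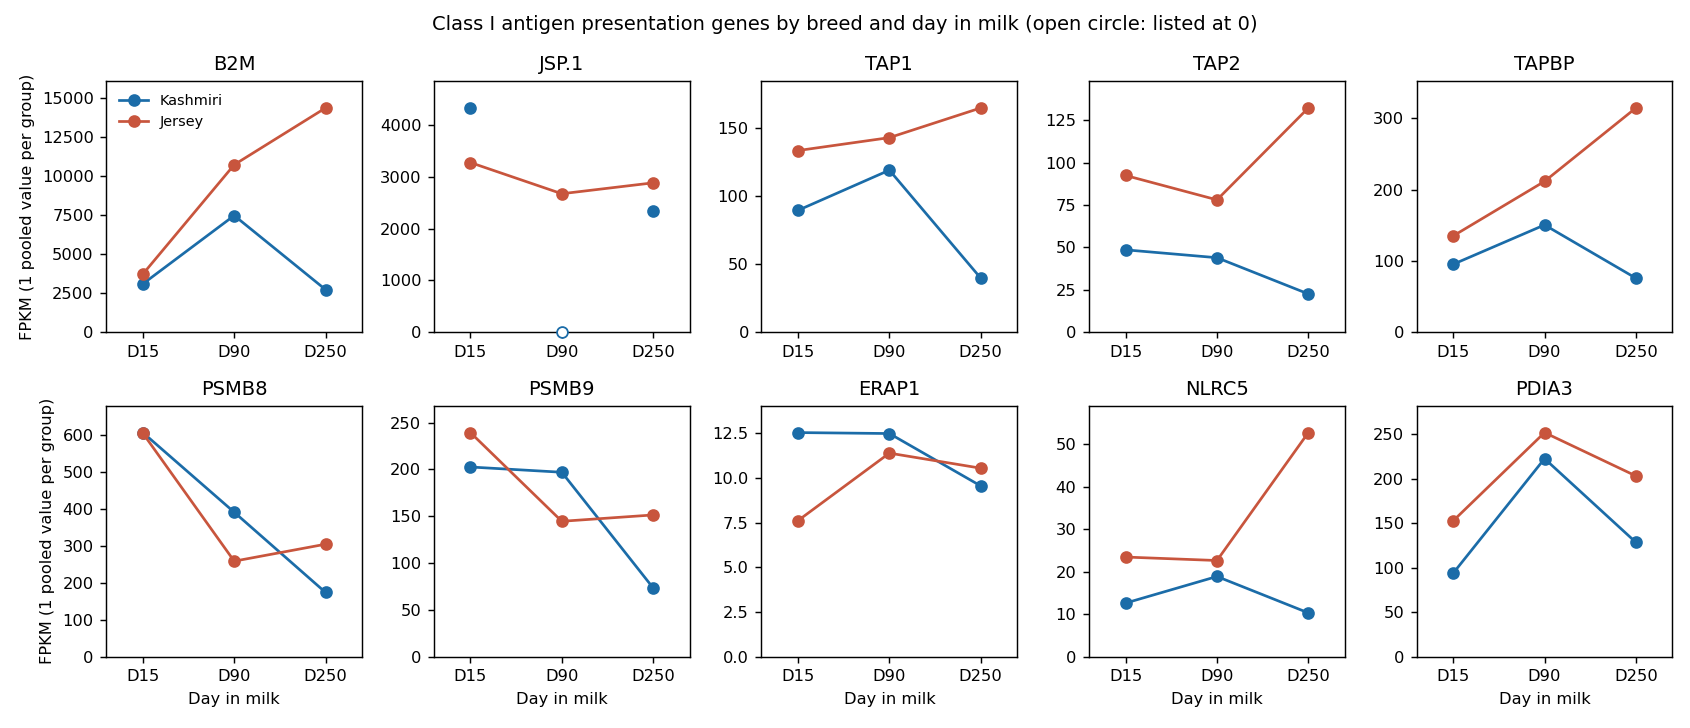
FPKM (vertical axis, linear, from 0) of the 10 class I genes by day in milk (horizontal axis) in Kashmiri (blue) and Jersey cattle (red), 1 pooled value per group with no error. The breeds part most at D250 for B2M, TAP1, TAP2, TAPBP and NLRC5; the open circle marks JSP.1 listed at 0 in Kashmiri D90, and no line is drawn to it.

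The composition of the pathway shifted with it. B2M made up 36.0% of the summed FPKM of the 10 genes in Kashmiri D15 and 44.3% in Jersey D15, and 48.6% and 77.3% in the same breeds at D250. The summed FPKM of the 8 members other than B2M and JSP.1 was 1161, 1155 and 533.8 in Kashmiri and 1389, 1122 and 1334 for the Jersey groups. In Jersey cattle the sum of these 8 stayed between 1122 and 1389 FPKM while B2M rose.

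Groups were compared by the log2 ratio of FPKM + 1, and a gene was counted when this was at least 1 in either direction, that is about 2-fold. A gene entered with at least 1 FPKM in either group, unless it was listed at 0 in one of them. The comparisons are not independent, since each group served in 3 of the 9. Scaling mattered, because the sum of all FPKM ran from 533249 in Kashmiri D250 to 1.02e+06 in Kashmiri D15. Ratios were therefore also taken with groups rescaled by their upper quartile, and to the same sum without 5 milk protein genes. With the latter, the median log2 ratio of all genes moved from -0.04 to 0.81 in Kashmiri D250 over D15, from 0.03 to 0.63 in Kashmiri D250 over D90, and from -0.10 to -0.75 in Jersey over Kashmiri D250. The shares of all genes past the limit upward and downward were then 39.5% and 2.46%, 27.1% and 2.45%, and 13.7% and 37.5% in these comparisons. Directions of members that turned are named beside each comparison. Counts of marker genes and of other pathway genes were taken as deposited only, and a rescaling would move their ratios too.

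The change from early to mid lactation in Kashmiri cattle was led by B2M and PDIA3. B2M was 2.42-fold and PDIA3 2.37-fold higher at D90 than at D15, with log2 ratios of 1.27 and 1.24, and these 2 of the 9 members compared passed the limit upward and 0 downward. Of all genes, 14.5% passed upward and 18.6% downward. TAPBP, NLRC5 and TAP1 had log2 ratios of 0.65, 0.54 and 0.41. PSMB8 had -0.63 and was the lone member below 0 under all 3 scalings, while TAP2, PSMB9 and ERAP1, between -0.14 and -0.01, turned above 0 under both rescalings. The median of the members was 0.41, against -0.01 for all genes. Over the same interval 8 of 12 T and NK cell and 5 of 6 general leukocyte markers passed upward and 8 of 9 epithelial markers downward. Upward also went 6 of 9 neutrophil, 5 of 8 macrophage and 5 of 6 B cell markers. The part of cell mixture in the class I values was not tested.

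From D90 to D250 in Kashmiri cattle the class I genes were lower. All 9 members compared had log2 ratios below 0, with a median of -0.98 against 0.03 for all genes, and 4 passed the limit downward: TAP1 fell by 1.56, B2M by 1.46, PSMB9 by 1.41 and PSMB8 by 1.16 on the log2 scale. Of all genes 8.66% passed downward and 8.81% upward. TAPBP at -0.98, TAP2 at -0.93, NLRC5 at -0.81 and PDIA3 at -0.79 were just inside the limit, and ERAP1 at -0.35 was the nearest to 0. Rescaled to the common sum, 0 of 9 passed, with 8 of 9 still below 0, a median of -0.29 against 0.63 for all genes, and ERAP1 turned to 0.29. The heavy chain BOLA-A fell by 1.76 over this interval as deposited. Of the T and NK cell markers 11 of 12, and of the general leukocyte markers 3 of 6, passed downward, while 7 of 10 epithelial markers passed upward; IFNG, the interferon gamma gene, stood at 7.60 FPKM in Kashmiri D90 and 1.35 FPKM in Kashmiri D250. The part of these cells in the lower class I values was not tested.

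Across the whole Kashmiri lactation, D250 over D15, the proteasome and transporter genes were the ones that passed the limit. PSMB8 was 3.48-fold, PSMB9 2.76-fold, TAP1 2.26-fold and TAP2 2.15-fold lower at D250, log2 ratios of -1.80, -1.45, -1.15 and -1.07. With JSP.1 available at both days, this was 4 of 10 members downward and 0 upward, and of all genes 14.3% passed downward and 11.0% upward. JSP.1 had a log2 ratio of -0.88, and B2M, at -0.18, was near its D15 level. These values leaned on the scaling. By the upper quartile, 2 of 10 passed and B2M turned to 0.09. With the common sum, PSMB8, PSMB9, TAP1 and TAP2 kept negative ratios, from -0.79 to -0.10, none of them past the limit, while B2M, JSP.1, TAPBP, NLRC5 and ERAP1 turned above 0 and PDIA3 alone passed, at 1.45. In the same comparison 7 of 9 macrophage and 5 of 9 neutrophil markers passed upward and 3 of 9 epithelial markers downward, and their part was not tested.

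In Jersey cattle the step from D15 to D90 also raised B2M, 2.88-fold (log2 ratio 1.53), as PSMB8 fell by 1.22 on the log2 scale. These were the members past the limit, 1 of 10 in each direction, where 12.6% of all genes passed upward and 16.8% downward. PSMB9 had -0.72 and JSP.1 -0.29, while PDIA3, TAPBP and ERAP1 had 0.72, 0.64 and 0.52. TAP1, NLRC5 and TAP2 lay between -0.24 and 0.10. NLRC5 turned above 0 under both rescalings and TAP2 under that to the common sum, which also brought PSMB8 to -0.96, inside the limit. In the same step 6 of 12 T and NK cell markers and 9 of 10 epithelial markers passed downward and 2 of 6 general leukocyte markers upward, which was not tested as a source of the class I values.

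From D90 to D250 in Jersey cattle NLRC5 alone passed, 2.33-fold higher at a log2 ratio of 1.18, so 1 of 10 members passed upward and 0 downward. Of all genes 16.5% passed upward and 3.95% downward. TAP2 had 0.75, TAPBP 0.57 and B2M 0.42, and the remaining 6 members lay between -0.31 and 0.23. NLRC5 was inside the limit under both rescalings, at 0.93 and 0.78. TAP1, PSMB8, JSP.1 and PSMB9 turned below 0 under both, whereas NLRC5, TAP2, TAPBP and B2M did not, although B2M came to 0.0042 with the common sum. The members' median, 0.22 as deposited, turned to -0.04 and -0.20. In this step 8 of 10 epithelial and 5 of 9 neutrophil markers passed upward and 4 of 9 macrophage markers downward, and their part was not tested.

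Over the whole Jersey lactation B2M rose 3.86-fold, TAPBP 2.33-fold and NLRC5 2.25-fold, log2 ratios of 1.95, 1.21 and 1.14 for D250 over D15. That was 3 of 10 members upward and 0 downward, beside 24.4% of all genes upward and 17.7% downward. TAP2, ERAP1, PDIA3 and TAP1 had 0.51, 0.42, 0.41 and 0.30. Below 0 were PSMB8 at -0.99, PSMB9 at -0.66 and JSP.1 at -0.18. Every member kept its direction under both rescalings, in which PSMB8 passed downward, at -1.10 and -1.14, and NLRC5 came to 1.03 and 0.98. Neutrophil markers passed upward in 6 of 9 cases. T and NK cell markers passed downward in 9 of 12 cases, epithelial markers in 6 of 9 and B cell markers in 5 of 6, and the part of all these was not tested.

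**Figure D2:**
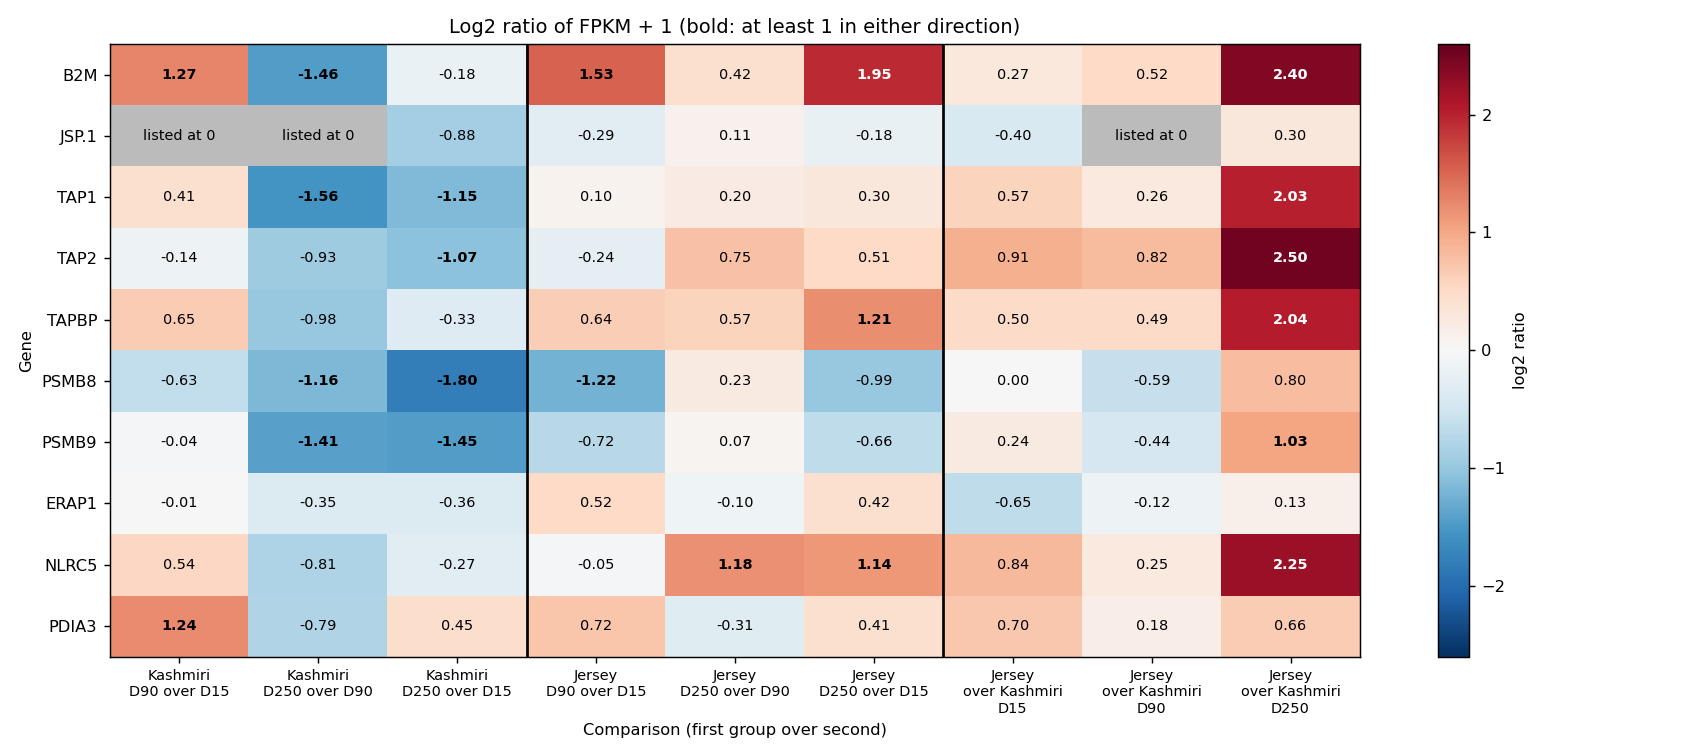
Log2 ratios of FPKM + 1 for the 10 class I genes (rows) in the 9 comparisons (columns, first group over second), red above and blue below 0, bold where at least 1 in either direction, grey where JSP.1 was listed at 0. The last column, Jersey over Kashmiri at D250, is above 0 in all 10 rows as deposited, from 0.13 for ERAP1 to 2.50 for TAP2.

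Early in lactation the breeds differed little in these genes as deposited. At D15, 0 of 10 members passed the limit between Jersey and Kashmiri cattle in either direction, while 15.8% of all genes were higher and 12.8% lower in Jersey cattle. TAP2, NLRC5, PDIA3, TAP1 and TAPBP had log2 ratios of 0.91, 0.84, 0.70, 0.57 and 0.50. PSMB8 was alike to within a ratio of 0.997, JSP.1 had -0.40, and ERAP1, at -0.65, was the lowest. Rescaled to the common sum, TAP2, NLRC5 and PDIA3 passed, at 1.30, 1.20 and 1.08, and PSMB8 turned to 0.39. The median of the members was 0.38 against -0.13 for all genes as deposited, and 0.77 against 0.22 with the common sum. All 9 neutrophil markers, 8 of 9 macrophage markers and 5 of 6 general leukocyte markers passed upward at D15, and their part was not tested.

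At D90, 0 of 9 members passed in either direction, and 16.8% of all genes were higher and 15.7% lower in Jersey cattle. TAP2 had 0.82, B2M 0.52 and TAPBP 0.49, while PSMB8 had -0.59 and PSMB9 -0.44. TAP2 passed, at 1.15, with the common sum, and ERAP1, at -0.12 as deposited, turned above 0. The median of the members was 0.25 against -0.03 for all genes as deposited, and 0.58 against 0.27 with the common sum. Neutrophil markers passed upward in 9 of 9 cases and macrophage markers in 8 of 9. T and NK cell markers passed downward in 10 of 12 cases, epithelial markers in 7 of 10 and B cell markers in 4 of 6. Their part was not tested.

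As deposited, the breeds parted at D250. TAP2 was 5.86-fold, B2M 5.27-fold, NLRC5 5.10-fold, TAPBP 4.16-fold, TAP1 4.15-fold and PSMB9 2.06-fold higher in Jersey than in Kashmiri cattle. These 6 of 10 members passed upward and 0 downward, where 22.7% of all genes passed upward and 11.5% downward. The median log2 ratio of the members was 1.53, against -0.10 for all genes. PSMB8 at 0.80, PDIA3 at 0.66, JSP.1 at 0.30 and ERAP1 at 0.13 were inside the limit.

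TAP2, B2M, NLRC5, TAPBP and TAP1 passed under all 3 scalings, with log2 ratios of 1.27 to 1.75 for the common sum, where the median of all genes was -0.75. PSMB9 did not, at 0.54 by the upper quartile and 0.27 for the common sum. JSP.1 and ERAP1 turned below 0 under both rescalings and PDIA3, at -0.11, with the common sum. The members past the limit under every scaling were thus the light chain, both transporter genes, tapasin and NLRC5. With the common sum the median of the members was 0.77, alike to that at D15. The median of all genes was -0.75 at D250 and 0.22 at D15 with that scaling.

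Markers moved in the same comparison, here as deposited and not counted again after rescaling. All 9 neutrophil markers (median log2 ratio 4.78) and all 6 general leukocyte markers (1.68) passed upward, 8 of 10 epithelial markers (-1.23) and 9 of 11 T and NK cell markers (-1.69) passed downward. Of the macrophage markers 5 of 9 passed upward and 1 downward, and 4 of 6 B cell markers passed downward. PTPRC, the CD45 antigen of all white blood cells, stood at 87.9 FPKM in Kashmiri D250 and 320.2 FPKM in Jersey D250. The ratio of B2M to PTPRC within a group was 45.0, 45.0 and 31.0 in Kashmiri and 62.0, 89.6 and 44.8 in Jersey cattle, and that of TAPBP to PTPRC was 1.39, 0.906 and 0.862 in Kashmiri and 2.25, 1.77 and 0.983 in Jersey cattle. Against CD53, another leukocyte marker, B2M ran the other way, with ratios of 49.3, 33.5 and 22.6 in Kashmiri and 12.5, 16.8 and 11.1 in Jersey cattle. How much of the D250 difference came with white blood cells was not tested.

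**Figure D3:**
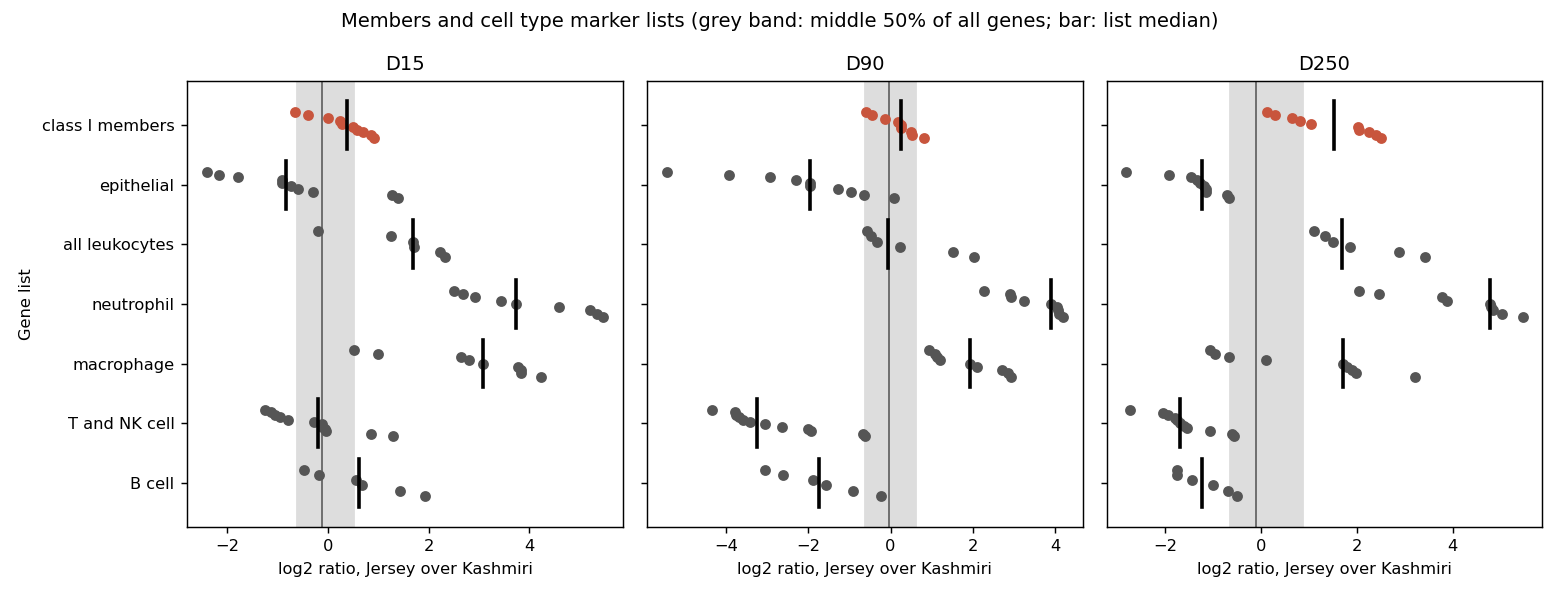
Log2 ratios of Jersey over Kashmiri cattle (horizontal axis) for each class I gene (red) and each cell type marker gene (dark grey) by list, in 3 panels for D15, D90 and D250; black bars are list medians, the vertical line and grey band the median and middle 50% of all genes. As deposited, neutrophil markers lie above 2 on all 3 days, while the class I genes pass 1 at D250 only.

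**Figure D4:**
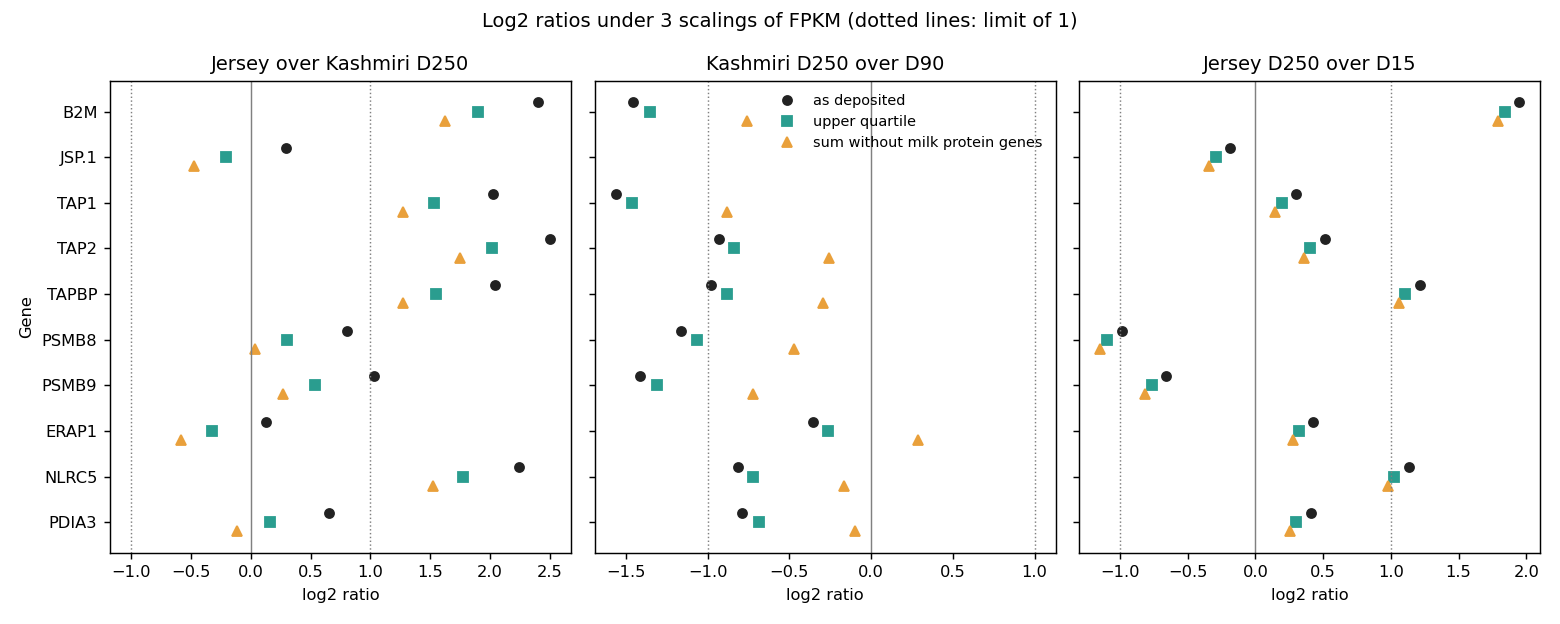
Log2 ratios (horizontal axis) of the class I genes (rows) in 3 comparisons, as deposited (circles) and after rescaling by the upper quartile (squares) or to a common sum without milk protein genes (triangles), with dotted lines at the limit of 1. At D250, B2M, TAP1, TAP2, TAPBP and NLRC5 stay beyond 1 under all 3, and in Kashmiri D250 over D90, where JSP.1 has no value, no triangle passes -1.

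Ratios between genes of 1 group do not depend on how that group was scaled. B2M over BOLA-A was 3.87, 7.57 and 9.34 in Kashmiri and 3.67, 9.06 and 9.98 in Jersey cattle at D15, D90 and D250, so the light chain gained on this heavy chain entry in both breeds. Over JSP.1 plus BOLA-A, which does not rest on 1 heavy chain entry alone, B2M stood at 0.602 and 1.03 in Kashmiri D15 and D250. In Jersey cattle this ratio was 0.866, 2.78 and 3.32, a larger gain from D15 to D250. The study discarded reads that mapped to several positions, so adding the entries does not remove the uncertainty in heavy chain reads. Against JSP.1, B2M stood at 0.713 and 1.16 in Kashmiri D15 and D250 and at 1.13, 4.00 and 4.97 in Jersey cattle. In Kashmiri D15 the JSP.1 entry was thus above B2M, the 1 group where this was so.

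The immunoproteasome was set against the subunits it replaces. PSMB8 over PSMB5 was 3.74, 7.91 and 2.05 in Kashmiri and 5.69, 5.23 and 7.67 in Jersey cattle. PSMB9 over PSMB6 was 1.31, 2.26 and 0.630 in Kashmiri and 1.86, 1.65 and 1.96 in Jersey cattle. Both ratios were highest at D90 and lowest at D250 in Kashmiri cattle, and varied less in Jersey cattle.

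PSMB10, the remaining inducible subunit, went another way. Its ratio to PSMB7 was 1.73, 1.35 and 0.611 in Kashmiri and 2.21, 0.925 and 0.803 in Jersey cattle, highest at D15 in both breeds. The constitutive subunits themselves were not at a fixed level, since PSMB5 was lower in Jersey than in Kashmiri cattle at D250 by a log2 ratio of -1.08.

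TAP1 lies between PSMB8 and PSMB9 in the RefSeq annotation of another bovine assembly, a Tharparkar genome, in which 8 of the 10 members were matched. These neighbours did not keep a fixed ratio. TAP1 over PSMB8 was 0.148, 0.305 and 0.228 in Kashmiri and 0.221, 0.553 and 0.542 in Jersey cattle. TAP1 over PSMB9 was 0.442, 0.605 and 0.541 in Kashmiri and 0.558, 0.990 and 1.09 in Jersey cattle, so the transporter gene was higher against both subunits at D90 and D250 than at D15 in both breeds. TAP1 over TAP2 stayed between 1.25 and 2.71.

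**Figure D5:**
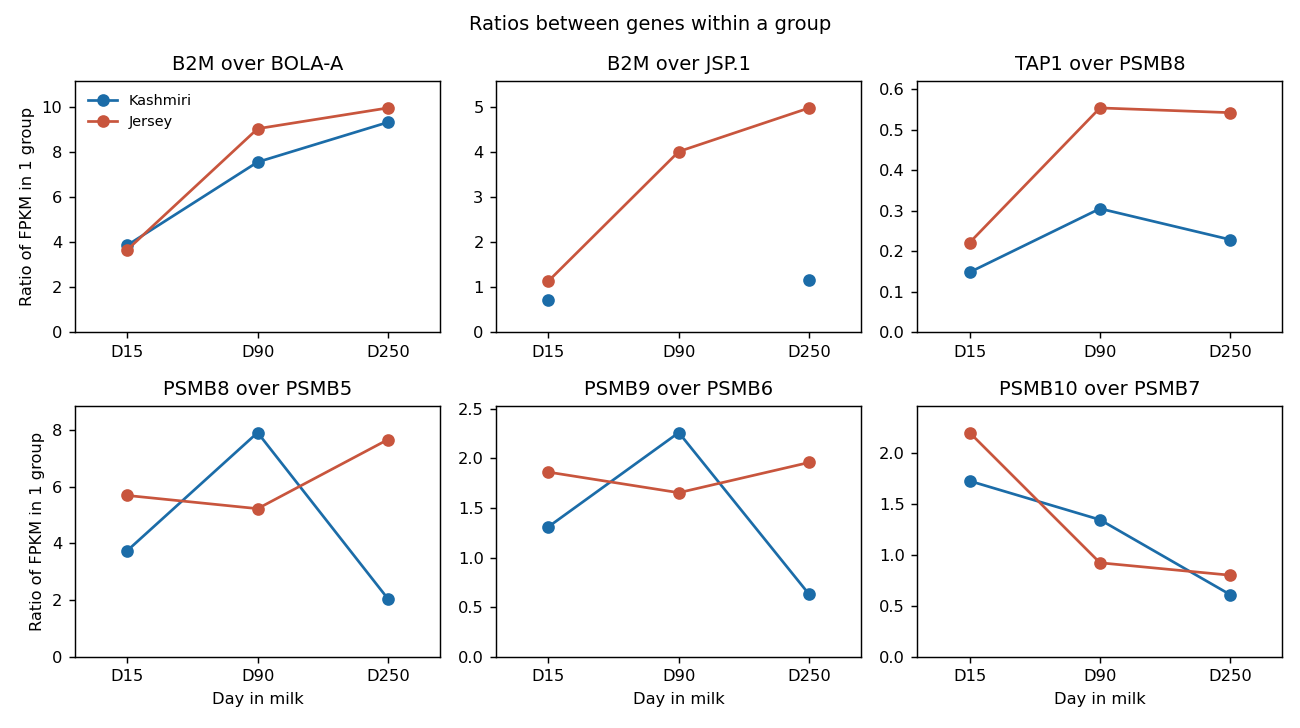
Ratios of FPKM between pairs of genes in the same group (vertical axes from 0) by day in milk in Kashmiri (blue) and Jersey cattle (red), 1 value per group with no error. B2M gains on BOLA-A in both breeds, whereas PSMB8 over PSMB5 and PSMB9 over PSMB6 peak at D90 in Kashmiri and at D250 in Jersey cattle; B2M over JSP.1 has no Kashmiri D90 value.

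Over the 6 groups, members fell along more than 1 pattern. The Pearson correlation of log2(FPKM + 1) with B2M, a description over 6 points that share their libraries, was 0.957 for TAPBP, 0.847 for PDIA3, 0.832 for NLRC5, 0.753 for TAP1 and 0.675 for TAP2. It was 0.301 for ERAP1, 0.136 for PSMB9 and -0.201 for PSMB8, and -0.264 for JSP.1 over the 5 groups where it was not at 0. With PTPRC it was 0.857 for B2M and 0.778 for TAPBP, but -0.367 for PSMB8. Among 4622 genes with a mean of at least 10 FPKM, those most like B2M were SFPQ (0.987), the joined entry of LRP8 and MAGOH (0.986), PNRC1 (0.980), PPP2CA (0.978) and PQBP1 (0.978). Those most like TAPBP were ICAM2 (0.992), its paralog TAPBPL (0.987), SMIM3 (0.986), PQBP1 (0.986) and BCL2L11 (0.986). Each of these rests on 6 points and is given without a test.

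Other genes of the pathway were described for Jersey over Kashmiri cattle at D250, where 22.7% of all genes passed upward and 11.5% downward. These list counts are as deposited and were not taken again after rescaling. With the common sum the median log2 ratio of all genes there moved from -0.10 to -0.75, so list genes near the limit may not keep their place. Of 4 heavy chain and class I-like genes found, 2 were past the limit upward and 0 downward: BOLA-A, with 291.5 FPKM in Kashmiri and 1439 FPKM in Jersey cattle (log2 ratio 2.30), and MR1, which presents vitamin metabolites, with 2.56 and 44.2 FPKM (3.67). HFE, an iron regulator in an entry joined with histone genes, had the lowest ratio, -0.30. The BOLA-A ratio at D250 was thus near those of B2M and TAP2 and above that of JSP.1. As the split of reads between BOLA-A and JSP.1 is uncertain, these heavy chains cannot be held apart by it. Unequal mapping of heavy chain reads between the breeds was not tested either.

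Of 7 loading genes and chaperones 1 passed upward, TAPBPL, with 10.9 FPKM in Kashmiri and 94.6 FPKM in Jersey cattle (log2 ratio 3.00). CALR, calreticulin of the loading complex and the gene of the highest mean over the 6 groups, had 180.7 and 246.5 FPKM (0.45), and SEC61B, a subunit of the protein channel, had -0.68. The ratio of TAPBP to TAPBPL was 5.49, 5.96 and 6.92 in Kashmiri and 5.56, 4.95 and 3.33 in Jersey cattle. Of 4 genes of the immunoproteasome and its activator 0 passed in either direction, from PSMB10 at -0.12 to the assembly factor POMP at 0.55, with the activator subunit PSME1 at 0.07. Of 3 constitutive catalytic subunits 1, PSMB5, passed downward, and PSMB6 and PSMB7 had -0.59 and -0.51. Of 6 other peptidases 3 passed upward as deposited, between 1.30 and 1.39, led by NRDC in an entry joined with a microRNA. LAP3, of the highest mean, had -0.59 and TPP2 -0.67.

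Among regulators, 6 of 13 transcription factors passed upward and 0 downward. IRF1, which acts on class I promoters after interferon, had 56.9, 77.2 and 39.4 FPKM in Kashmiri and 158.9, 386.8 and 473.9 FPKM in Jersey cattle at D15, D90 and D250, a log2 ratio of 3.56 at D250. NFKB1, a subunit of NF-kappa B, had 3.91, and RFXAP, a subunit of the RFX complex to which NLRC5 is tethered, had -0.86. Of 17 interferon pathway and interferon-stimulated genes, 12 passed upward at D15, 10 at D90 and 13 at D250, where 15.8%, 16.8% and 22.7% of all genes did, and 1, 1 and 0 passed downward, JAK1 (-1.07) at D15 and IFNG (-2.68) at D90. ISG15 had the highest mean over the 6 groups, with 4494 FPKM in Jersey D15 against 544.5 FPKM in Kashmiri D15. IFNGR1, the ligand-binding chain of the interferon gamma receptor, had 3.87 at D250 and IFNG itself -0.75, at no more than 1.35 FPKM in either breed.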

How the data were processed

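Stranded poly(A) libraries were made from milk epithelial cells. The authors used Trimmomatic for trimming, Bowtie and TopHat for alignment to UMD3.1, and Cufflinks with Cuffdiff for assembly and quantification. The deposited values were FPKM, 1 pooled by the authors for each breed and day, 61264 entries with 25121 named; columns headed local were taken as Kashmiri, and 0 columns were left unmapped. Read totals per library were stated by the study, but the fragments behind each pooled value, its depth, were not given, so precision could not be computed. Of entries that repeated a name, that of the highest mean over the groups was taken. Genes with at least 1 FPKM in either group and listed at 0 in neither were compared by log2(FPKM + 1), where leaving out zeros was added once the file was seen. The text names all members, of each pathway list its most abundant gene and those with the highest and lowest D250 breed ratio, BOLA-A and PSMB10, the 5 genes most like B2M and TAPBP, and markers. PSMB5 to PSMB7, PTPRC and CD53 were also named for ratios, and JAK1 after its values were seen. The members and lists were chosen with earlier results of these data known. Of the lists, GBP2, GBP4, MX1, OAS1Y, HSPA5, NRD1, CD1D, 4 further BOLA names, CXCR1, CXCR2, BTN1A1, HBA and HBA1, among others, were not analysed here. Gene order came from RefSeq on assembly NIAB-ARS_B.indTharparkar_mat_pri_1.0, and positions on UMD3.1 were not analysed here. Alternatives were a pseudocount of 0.1, no filter, both rescalings, summed entries, JSP.1 left out and a limit of 2. The code was tested on simulated data. Figures were drawn with matplotlib 3.10.9, and values computed with pandas 2.3.3 and numpy 2.4.6 in Python 3.11.15.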

Additional observations from a re-analysis of the deposited data

Results flagged for a closer look

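For 5 class I genes the breeds went in opposite directions between the same days, under each of the 3 scalings. The share of all genes that did so was not computed, so this is not shown to be particular to them. Between D90 and D250 the Jersey log2 ratio exceeded the Kashmiri one by 2.00 for NLRC5, 1.88 for B2M, 1.68 for TAP2 and 1.55 for TAPBP, with Jersey cattle above 0 and Kashmiri cattle below 0 in each, though the Jersey ratio of B2M was 0.0042 with groups rescaled to the common sum. Between D15 and D250 the difference was 1.46 for TAP1 and 1.59 for TAP2, in the same directions. With the common sum these differences were smaller, 0.95 for NLRC5, 0.76 for B2M, 0.60 for TAP2 and 0.45 for TAPBP between D90 and D250, and 0.31 for TAP1 and 0.45 for TAP2 between D15 and D250. Each group was 1 pooled value, so these differences were not tested.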

How the results depend on the processing

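Medians and counts of members past the limit, 18 in all over the 9 comparisons, kept their direction and stayed within a factor of 1.5 with a pseudocount of 0.1 FPKM, with no filter, with summed entries and with JSP.1 left out. Rescaling to the common sum moved the median log2 ratio of the members to -0.29 in Kashmiri D250 over D90, 0.35 in Kashmiri D250 over D15, where it changed sign, and 0.77 in Jersey over Kashmiri D250. The median in Jersey D250 over D90 also changed sign, to -0.20, and to -0.04 by the upper quartile. The common sum changed the count past the limit to 0 in Kashmiri D250 over D90, 1 in Kashmiri D250 over D15, 1 in Jersey D90 over D15, 0 in Jersey D250 over D90, 3 in Jersey over Kashmiri D15, 1 in Jersey over Kashmiri D90 and 5 in Jersey over Kashmiri D250. The upper quartile changed it to 2 in Kashmiri D250 over D15, 0 in Jersey D250 over D90, 4 in Jersey D250 over D15 and 5 in Jersey over Kashmiri D250. The shifts follow from the construction, since a rescaling moves all ratios of a comparison alike. A limit of 2 can only lower a count. It left 0 members in all 6 comparisons of days, where B2M came nearest, at 1.95 in Jersey D250 over D15. In Jersey over Kashmiri D250, TAP2, B2M, NLRC5, TAPBP and TAP1 still passed it. Of the 87 single ratios, 29 moved by more than a factor of 1.5 with the common sum and 0 by the upper quartile. No paired analysis was possible because each group had 1 pooled value, and for the same reason no sample could be left out in turn. Fragments behind each value were not given, so what depth limits could not be computed.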
